A study of Mus musculus with 6 samples.

Results

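The genes described here are 37 genes of the endoplasmic reticulum (ER) and of the integrated stress response, taken from a fixed list of symbols and matched to the Entrez gene IDs of the count tables. All 37 were found among the 27179 IDs. They fall into an ER chaperone arm of 14 genes, an ATF4 arm of 16 genes, 4 genes of ER-associated degradation, and 3 genes for stress sensors and their factors. RNA-seq was performed on satellite cells (muscle stem cells) sorted by flow cytometry from wild-type C57Bl/6N mice, with 3 libraries from mice on a high-fat diet and 3 from mice on chow. The series asked how the diets affect the transcriptome of these cells. The age and sex of the mice, the length of the diet, and whether a library came from 1 animal or a pool are not given in the sources used here, so p-values reflect only the spread among these 6 libraries, part of which may be technical.

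Proteins that enter the ER are folded there by chaperones such as BiP (gene Hspa5) and by the disulphide isomerases of the Pdia genes, and misfolded proteins are exported to the cytosol for degradation. When unfolded proteins build up, the membrane sensors IRE1 (gene Ern1), ATF6 and PERK start the unfolded protein response, in which the transcription factors XBP1 and ATF6 induce chaperones through promoter elements. PERK and its sister kinases phosphorylate eIF2, which lowers general translation while favouring the translation of ATF4, an activator of genes for amino acid supply and for feedback such as Ppp1r15a. Quiescent satellite cells are known to keep eIF2 phosphorylated. Because ATF4 and XBP1 are controlled at translation and splicing, counts per gene do not report their activity.

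The promoter elements that carry these responses are shown first, since they differ between the arms and use no expression value. The list holds known targets of the factors that bind them, so their presence is a description of the genes and not a result. RefSeq promoter windows of GRCm38.p6, running from 250 bases before to 50 bases after each start, were held for 33 of the 37 genes (not for Atf6, Hyou1, Manf and Slc7a5). Each was searched on both strands for the ER stress response element ERSE, a CCAAT and a CCACG separated by 9 bases of any kind, which ATF6 and XBP1 bind together with the CCAAT factor NF-Y. An exact match was present in 0.119% of all 32851 windows (39 windows) and in the windows of 8 of the 33 genes, of which 7 were among the 12 chaperone arm genes with a window and 0 among the 15 of the ATF4 arm. The eighth was Syvn1. Each match is printed 5′ to 3′ on the strand on which the element reads forward, with its CCAAT and CCACG ends in capitals and 5 flanking bases on each side.
Hspa5: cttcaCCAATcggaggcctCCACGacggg
Calr: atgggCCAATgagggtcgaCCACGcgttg
Hsp90b1, distal: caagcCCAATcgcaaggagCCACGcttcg
Hsp90b1, proximal: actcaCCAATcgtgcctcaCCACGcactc
Canx: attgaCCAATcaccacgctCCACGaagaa
Pdia6: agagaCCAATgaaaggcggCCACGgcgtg
Dnajc3: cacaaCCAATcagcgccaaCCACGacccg
Creld2: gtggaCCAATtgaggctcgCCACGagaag
Syvn1: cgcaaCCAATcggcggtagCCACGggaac
Distances upstream, here and below, are to the end of the element farthest from the RefSeq start, whichever strand is printed. The Hspa5 stretch (chr2:34772020-34772048, plus strand) begins its element 65 bases before the RefSeq start and overlaps an exon annotated in GENCODE M21. The 2 elements of Hsp90b1 (chr10:86705633-86705661, minus strand, and chr10:86705528-86705556, plus strand) lie 212 and 107 bases upstream and face opposite ways. The other elements begin between 44 bases (Syvn1) and 162 bases (Calr) upstream, and these stretches overlap no GENCODE exon. They are Calr at chr8:84847070-84847098, Pdia6 at chr12:17266486-17266514, Dnajc3 at chr14:118937822-118937850 and Syvn1 at chr19:6046527-6046555, all on the plus strand, and Canx at chr11:50325795-50325823 and Creld2 at chr15:88819515-88819543, both on the minus strand.

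The related element ERSE-II, an ATTGG and a CCACG separated by 1 base of any kind, which shares its CCACG end with ERSE, was in 0.0365% of windows and in those of Herpud1 and Dnajb11. The ATF4 element CARE, TGATGNAA, was in 3.97% of windows and in those of 4 of the 15 ATF4 arm genes with a window, Chac1, Trib3, Asns and Slc7a11, the last with 2 matches, and also in that of Herpud1. The cyclic AMP element CRE, TGACGTCA, was in 1.79% of windows and in that of Ppp1r15a. The XBP1 element UPRE, TGACGTGG, was in 0.676% of windows and in 0 of the 33. No window held both ERSE and ERSE-II, and 1 held both UPRE and CRE. These stretches are printed in the same way, with the fixed letters of the element in capitals.
Herpud1, ERSE-II: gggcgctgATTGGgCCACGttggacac
Dnajb11, ERSE-II: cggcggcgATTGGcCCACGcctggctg
Herpud1, CARE: gtgcgggcTGATGcAAcccgccgt
Chac1, CARE: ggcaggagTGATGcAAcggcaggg
Slc7a11, CARE, distal: catgtggcTGATGcAAacctggag
Slc7a11, CARE, proximal: ctgcatgaTGATGcAAattctcca
Asns, CARE: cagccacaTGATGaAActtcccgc
Trib3, CARE: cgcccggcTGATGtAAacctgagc
Ppp1r15a, CRE: ctctccggTGACGTCAgcacagcg
Herpud1 holds both kinds of element, the ERSE-II 52 bases (chr8:94386369-94386395, plus strand) and the CARE 112 bases upstream (chr8:94386309-94386332, minus strand). The CRE of Ppp1r15a (chr7:45526265-45526288, minus strand) begins 12 bases upstream. The Slc7a11 matches (chr3:50443664-50443687, minus strand, and chr3:50443645-50443668, plus strand) begin 66 and 47 bases upstream, and that of Chac1 (chr2:119351041-119351064, minus strand) 193 bases upstream. That of Asns (chr6:7693217-7693240, minus strand) begins 23 bases upstream. The Dnajb11 match (chr16:22857844-22857870, plus strand) and the Trib3 match (chr2:152344031-152344054, plus strand) lie after the start. The stretches of Dnajb11, Trib3, Asns and Ppp1r15a overlap an annotated exon. A match describes these letters only, and binding was not measured.

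Total counts ran from 14930394 to 18217818 per library, and levels are given as CPM, counts scaled to a common library total after TMM, which sets library sizes by the bulk of genes. High-fat diet library 1 and chow library 3 were known from earlier results to deviate most from the others, and results are also given without both. The 10 satellite cell markers on the list used here all passed the filter on low counts, 5 of them with a positive log2 fold change, and summed to between 4200 and 5159 CPM on the high-fat diet and between 4767 and 5511 CPM on chow. Pax7, the defining factor of these cells, was at 171 to 283 CPM on the high-fat diet and 370 to 430 CPM on chow, without overlap (edgeR adjusted p = 0.18). Itga7 went the other way, at 322 to 404 CPM on the high-fat diet and 193 to 280 CPM on chow, also without overlap (edgeR adjusted p = 0.328). Of the 10 markers, 1 was higher and 2 were lower without overlap, against 7.42% and 7.87% of all genes tested. The part of these differences in the results below was not tested. The leukocyte list summed to between 9.55 and 26.5 CPM on the high-fat diet and between 19.2 and 57.6 CPM on chow. Of its 10 markers 4 passed the filter on low counts, 2 of them with a positive log2 fold change, and the most abundant was Cd68 at 6.31 to 31.0 CPM. Adgre1 and Cd3e were at 0 counts in every library. Fibroblast markers summed to between 1142 and 1471 CPM on the high-fat diet and between 1058 and 1227 CPM on chow, with 7 of 9 tested members positive and 0 passing. In bulk RNA, fewer cells of a type and less RNA per cell cannot be told apart. A total of 13 of the 37 genes overlap another annotated gene, and the strand setting of the counting was not given, so their reads are uncertain: Hspa5, Pdia3, Pdia4, Pdia6, Dnajb11, Dnajc3, Edem1, Syvn1, Atf6, Atf5, Ddit3, Ppp1r15a and Shmt2.

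The diets were compared with edgeR's quasi-likelihood test over 13202 genes, with Benjamini-Hochberg adjustment over all of them and a threshold of 0.05. This test called 0 of the 37 genes. Over all genes tested it called 34, or 0.258% (12 higher, 0.0909%, and 22 lower, 0.167%). DESeq2, limma-voom and edgeR without the filter on low counts each called 1 of the 37, Ppp1r15a, against 2.06%, 0.75% and 0.839% of all genes. Of the 37, 35 passed the filter on low counts, and Trib3 and Asns did not. At an unadjusted p under 0.05, 9 were higher with the high-fat diet (3.7% of all genes tested) and 1 was lower (3.95% of all genes tested), against 7.65% of all genes in either direction. The 9 were 8 genes of the chaperone arm and Xbp1, and the 1 was Ppp1r15a. The statements on single genes below therefore give levels and differences, none of which passed the edgeR threshold. Where 2 runs of 3 levels follow each other, the first holds high-fat diet libraries 1 to 3 and the second chow libraries 1 to 3.

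**Figure D1:**
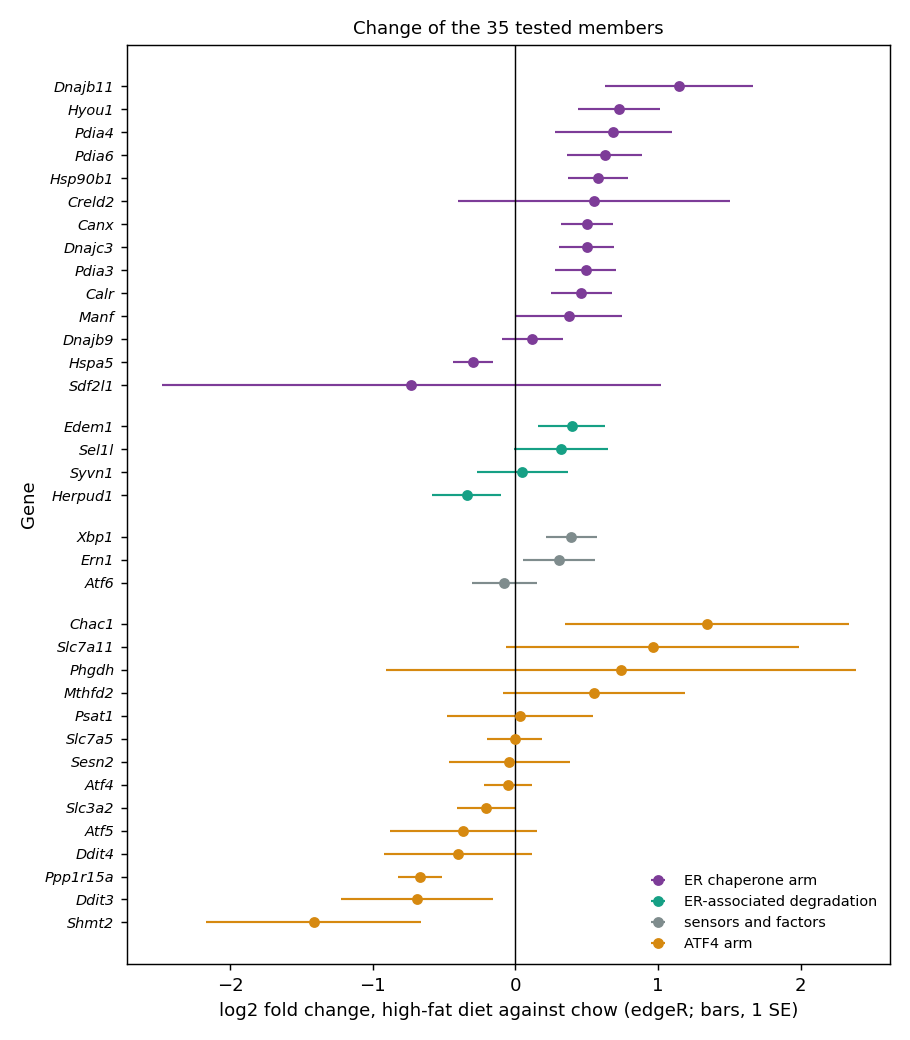
Log2 fold change of the 35 tested genes, high-fat diet against chow, grouped by role; points are edgeR estimates, bars 1 SE, and the vertical line marks no difference. In the chaperone arm 12 of 14 estimates are positive, with Hspa5 and Sdf2l1 negative, while ATF4 arm estimates lie on both sides of 0 and several have wide errors.

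In the ER chaperone arm most genes were at higher levels in the high-fat diet libraries, and Hspa5, the most abundant, was at lower levels. The log2 fold change was positive for 12 of 14 genes, with a median of 0.50 (1.42-fold), where the median over all genes tested was -0.01 and 49.5% were positive. At an unadjusted p under 0.05, 8 of 14 were higher and 0 lower in this fit, against 3.7% and 3.95% of all genes tested. The count of lower genes was 1 with DESeq2, limma-voom, robust dispersions in edgeR, and without high-fat diet library 1. The libraries of the diets did not overlap for Canx, Pdia6 and Dnajb11, which were higher, and for Hspa5, which was lower, where 7.42% of all genes tested were higher without overlap and 7.87% lower. The count of 8 changed with the libraries used, to 2, 2 and 9 when high-fat diet library 1, 2 or 3 was removed and to 4, 1 and 6 when chow library 1, 2 or 3 was. It was 5 without the 2 deviating libraries. The median ran from 0.41 to 0.70 over the fits with 1 library left out and was 0.46 without the 2 deviating libraries, and 10 to 12 of the 14 estimates were positive in all of these fits.

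Hspa5 encodes BiP, the ER member of the Hsp70 family, which binds unfolded chains and holds the stress sensors inactive. It had the highest level per length of the 37 genes, 611 CPM per kilobase of exon, next to 226 for Ppp1r15a, 149 for Hsp90b1 and 147 for Atf4. Hspa5 (chromosome 2, 34772090 to 34776529, GRCm38) was at 2599, 2446 and 1918 CPM in the respective high-fat diet libraries and at 2855, 2634 and 3058 CPM in the respective chow libraries. Every high-fat diet library lay below every chow library, although high-fat diet library 1 and chow library 2 were close. The means were 2321 ± 358 CPM on the high-fat diet and 2849 ± 212 CPM on chow (SD, n = 3 each), and the difference did not pass (log2 fold change -0.30 ± 0.14 SE, edgeR adjusted p = 0.666).

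The partners of Hspa5 showed the opposite order in high-fat diet libraries 1 and 2. Hsp90b1, the ER member of the Hsp90 family also known as GRP94 (chromosome 10, 86690841 to 86705444), was at 749, 906 and 509.8 CPM on the high-fat diet and 398, 469.9 and 581 CPM on chow. High-fat diet library 3 lay within the chow range, and the other two lay above it (log2 fold change 0.58 ± 0.21 SE, edgeR adjusted p = 0.442). Canx encodes calnexin, a membrane lectin that folds glycoproteins. It was at 506, 465 and 356 CPM on the high-fat diet and 295, 288 and 352 CPM on chow. Its libraries did not overlap, but high-fat diet library 3 and chow library 3 nearly met (log2 fold change 0.50 ± 0.18 SE, edgeR adjusted p = 0.435). Dnajc3, known as p58IPK, is a co-chaperone of BiP. It was at 422, 409 and 280.0 CPM and 239, 243 and 304 CPM, and high-fat diet library 3 again lay within the chow range (log2 fold change 0.50 ± 0.19 SE, edgeR adjusted p = 0.505). Hyou1, known as GRP170, exchanges nucleotide on BiP. Its levels were 169, 161 and 80.5 CPM and 104, 77.4 and 66.2 CPM, with the same library within the chow range (log2 fold change 0.73 ± 0.29 SE, edgeR adjusted p = 0.518).

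The other chaperone arm genes followed this order to differing degrees. The disulphide isomerase genes Pdia3, Pdia4 and Pdia6 had log2 fold changes of 0.49, 0.69 and 0.63, and of these Pdia6 alone showed no overlap, at 101, 104 and 67.1 CPM on the high-fat diet and 63.3, 50.8 and 62.2 CPM on chow. Calr, the soluble lectin calreticulin, was at 249, 184 and 244 CPM and 190.0, 178 and 123 CPM. Here high-fat diet libraries 1 and 3 were the higher ones and library 2 lay within the chow range. Dnajb11, a co-chaperone with an ERSE-II match, was at 26.5, 37.4 and 22.3 CPM and 14.9, 6.88 and 17.1 CPM, a 2.21-fold difference with no overlap at a low level (log2 fold change 1.15 ± 0.52 SE, edgeR adjusted p = 0.634). Dnajb9, known as ERdj4 and a target of XBP1, showed no such order, at 329, 220.1 and 218 CPM and 246, 184 and 277 CPM (log2 fold change 0.12). Manf and Creld2, which encode secreted ER stress proteins, had log2 fold changes of 0.38 and 0.55 and were lowest of all 6 libraries in high-fat diet library 3. Sdf2l1 was at 6.89, 0.192 and 1.89 CPM and 8.16, 0 and 6.72 CPM, and this spread within each diet gave a log2 fold change of -0.73 with an SE of 1.75.

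**Figure D2:**
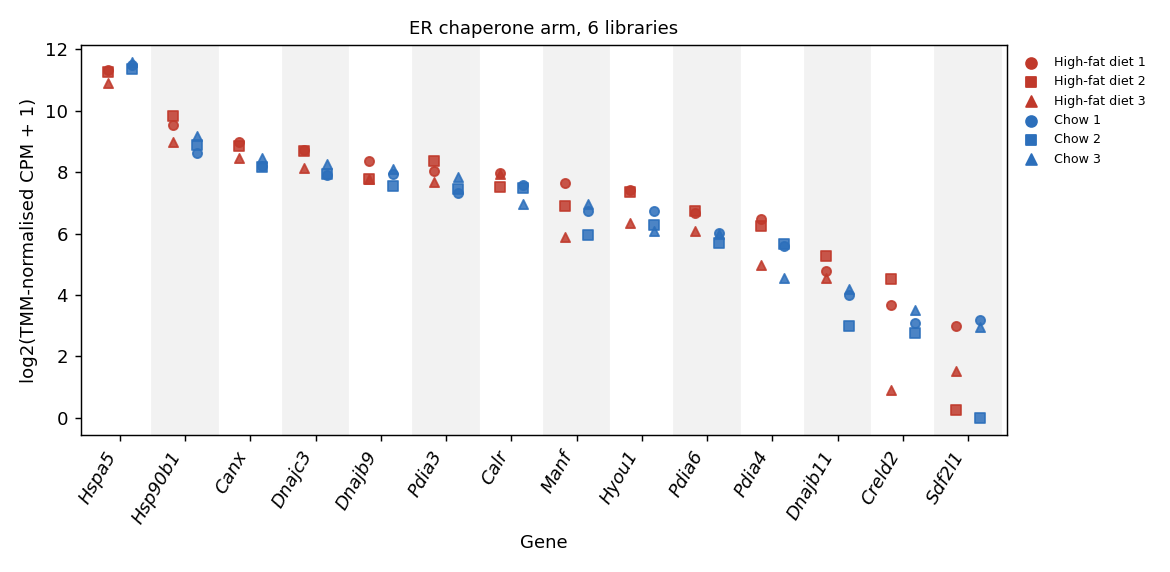
Level of each ER chaperone arm gene in the 6 libraries as log2(TMM-normalised CPM + 1), with high-fat diet libraries in red and chow libraries in blue; genes are ordered by mean CPM, which is not corrected for length. Red circles and squares (high-fat diet libraries 1 and 2) sit above all blue points for 9 of 14 genes, whereas the red triangle (library 3) does so for 4, and Hspa5 is the abundant gene with all red points below the blue ones. Over the 3047 genes tested at 50 CPM or more, libraries 1 and 2 lay above chow for 22.6% and library 3 for 25.9%.

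High-fat diet library 3 was the lowest of the high-fat diet libraries for every arm gene other than Calr and Sdf2l1. High-fat diet libraries 1 and 2 both lay above all chow libraries for 9 of 14 genes, and library 3 did so for 4 and lay below all chow libraries for 3. The 4 of 14 for library 3, or 28.6%, was near the 25.9% of the 3047 genes tested with a mean of at least 50 CPM. For the 11 arm genes whose mean reached 50 CPM, libraries 1 and 2 both lay above all chow libraries for 7, or 63.6%. Over the 3047 genes tested at that level the share was 22.6%. Library 3 lay above all chow libraries for 3 of the 11, or 27.3%, against 25.9% of those 3047 genes. The limit of 50 CPM and the joining of libraries 1 and 2 were chosen after the values were seen. At that level the unadjusted p was under 0.05 for 7 of the 11, all of them higher, against 9.68% of genes higher and 9.06% lower. Of the 11, 2 were higher and 1 was lower without overlap, against 12.8% and 11.9% of genes. The highest library was high-fat diet library 1 for 7 and library 2 for 5 of the 14 genes, and library 3 for 0. The highest library was not counted over all genes. High-fat diet library 1 also had the largest sum of fibroblast markers (1471 CPM). The sums of libraries 2 and 3 (1149 and 1142 CPM) lay within the chow range (1058 to 1227 CPM). The part of fibroblast markers in the arm's levels was not tested.

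Hspa5 made up a smaller share of the arm's transcripts in all 3 high-fat diet libraries, including library 3. It took 45.4%, 44.7% and 48.1% of the summed CPM of the 14 genes in high-fat diet libraries 1 to 3, against 60.3%, 59.6% and 58.4% in chow libraries 1 to 3. The means were 46.1% ± 1.77 and 59.4% ± 0.940 (SD, n = 3 each). The ratio of Hspa5 to Canx CPM was 5.14, 5.26 and 5.39 with the high-fat diet and 9.67, 9.13 and 8.68 with chow. The gap between the diets in this share and this ratio was wider than the spread within either diet. The ratio of Hspa5 to Hsp90b1 CPM was 3.47, 2.70 and 3.76 with the high-fat diet and 7.17, 5.60 and 5.26 with chow. It did not overlap either, but its gap was narrower than the spread among the chow libraries. All of these are ratios within a library and do not depend on how libraries were scaled. They were chosen after the levels were seen and were given no test, and a ratio shows unequal change, not which gene changed. The summed CPM of the arm without Hspa5 was 3123, 3027 and 2072 with the high-fat diet and 1879, 1788 and 2175 with chow, so that this sum overlapped between the diets.

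**Figure D3:**
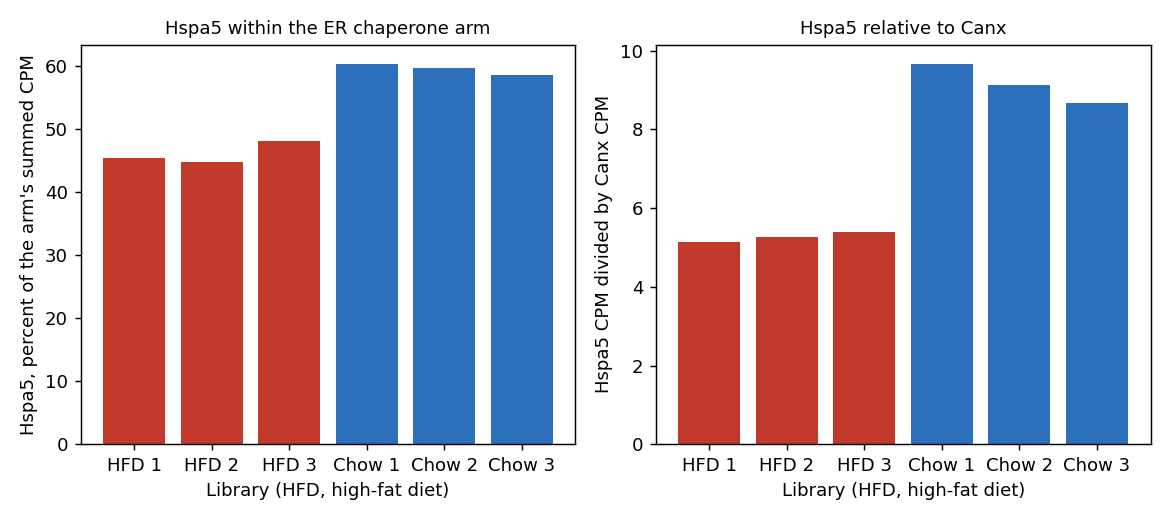
Hspa5 as a percentage of the summed CPM of the 14 chaperone arm genes (left) and Hspa5 CPM divided by Canx CPM (right) in each library, with high-fat diet in red and chow in blue and 1 bar per library. The red bars span 44.7% to 48.1% and the blue bars 58.4% to 60.3% on the left, and 5.14 to 5.39 against 8.68 to 9.67 on the right.

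Of the sensors and their factors, Xbp1 and Ern1 were at somewhat higher levels in all 3 high-fat diet libraries and Atf6 was not. Xbp1, whose spliced form encodes the transcription factor of the IRE1 branch, was at 323, 292 and 264 CPM on the high-fat diet and 220.4, 193 and 257 CPM on chow. The libraries did not overlap, and high-fat diet library 3 and chow library 3 were the nearest pair, for a 1.31-fold difference of the diets (log2 fold change 0.39 ± 0.18 SE, edgeR adjusted p = 0.635). Counts per gene do not separate spliced from unspliced Xbp1. Ern1, the gene of IRE1, was at 96.3, 69.9 and 71.1 CPM and 57.8, 68.9 and 65.1 CPM. Its libraries did not overlap either, though high-fat diet library 2 and chow library 2 almost met (log2 fold change 0.31 ± 0.25 SE, edgeR adjusted p = 0.925). Atf6 was at 303, 283 and 171 CPM and 316, 273 and 209 CPM, with the lowest value in high-fat diet library 3 and overlap of the diets (log2 fold change -0.08 ± 0.23 SE, edgeR adjusted p = 1.00).

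In the 4 genes of ER-associated degradation the libraries of the diets overlapped. Herpud1, which gathers the degradation complex, was at 89.3, 129 and 146 CPM on the high-fat diet and 187, 154 and 121 CPM on chow, the 1 gene of the 4 with a negative estimate (log2 fold change -0.34 ± 0.24 SE, edgeR adjusted p = 0.876). Edem1, a lectin that extracts misfolded glycoproteins, was at 219, 263 and 147 CPM and 173, 182 and 123 CPM (log2 fold change 0.40 ± 0.24 SE, edgeR adjusted p = 0.804). It was highest in high-fat diet libraries 1 and 2 and had library 3 within the chow range. Sel1l, the partner of the ubiquitin ligase, was at 85.2, 45.5 and 46.5 CPM and 39.1, 43.3 and 59.4 CPM, set apart by high-fat diet library 1 alone (log2 fold change 0.32 ± 0.33 SE, edgeR adjusted p = 0.961). Syvn1, the ligase HRD1, was at 61.7, 51.5 and 61.3 CPM and 34.0, 73.0 and 61.5 CPM, with a wider spread among the chow libraries than among the high-fat diet libraries (log2 fold change 0.05 ± 0.32 SE, edgeR adjusted p = 1.00).

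The ATF4 arm showed no common direction. Of the 14 genes tested, 5 had a positive and 9 a negative log2 fold change, with a median of -0.04. At an unadjusted p under 0.05, 0 were higher and 1, Ppp1r15a, was lower, against 3.7% and 3.95% of all genes tested. Libraries did not overlap for Ppp1r15a, which was lower, and for Chac1, which was higher, so 1 of 14 in each direction, close to the 7.87% and 7.42% of all genes. The median was -0.26 without high-fat diet library 2, 0.00 without high-fat diet library 3, and -0.17 in each of the fits that left out high-fat diet library 1, chow library 1 or the 2 deviating libraries. It was -0.12 without chow library 3 and -0.05 without chow library 2.

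All 3 transcription factors of the arm had negative estimates, and for each of them the libraries of the diets overlapped. Atf4 (chromosome 15, 80255184 to 80257545) was at 352, 296 and 376 CPM on the high-fat diet and 386, 348 and 326 CPM on chow. The libraries of the diets overlapped, and the means were 341 ± 41.4 CPM on the high-fat diet and 353 ± 30.3 CPM on chow (SD, n = 3 each; log2 fold change -0.05 ± 0.17 SE, edgeR adjusted p = 1.00). Its translation was not measured. Ddit3 encodes CHOP, a factor induced in prolonged stress. It was at 10.0, 13.9 and 30.9 CPM and 21.5, 20.9 and 45.7 CPM, and library 3 was the highest of either diet (log2 fold change -0.69 ± 0.53 SE, edgeR adjusted p = 0.906). Atf5 was at 20.1, 20.8 and 12.4 CPM and 12.6, 27.7 and 28.2 CPM, also with overlap (log2 fold change -0.36 ± 0.51 SE, edgeR adjusted p = 0.989).

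Among the feedback and effector genes, Ppp1r15a stood apart. It encodes GADD34, the phosphatase subunit that removes phosphate from eIF2 and restores translation. Ppp1r15a (chromosome 7, 45522917 to 45526268) was at 535, 428 and 577 CPM in the respective high-fat diet libraries and at 819.6, 817 and 809 CPM in the respective chow libraries. Every high-fat diet library was below the chow libraries, which were nearly equal. The difference was 1.59-fold (514 ± 76.6 CPM on the high-fat diet and 816 ± 5.37 CPM on chow, SD, n = 3 each). It did not pass in edgeR (log2 fold change -0.67 ± 0.16 SE, edgeR adjusted p = 0.148) and did with DESeq2 (adjusted p = 0.00172), limma-voom (adjusted p = 0.00645) and without the filter on low counts (edgeR adjusted p = 0.0415). Its log2 fold change over the fits with 1 library left out ran from -0.76 to -0.55, with adjusted p from 0.107 to 0.496, and it was -0.69 without the 2 deviating libraries (edgeR adjusted p = 0.465). Immediate early and dissociation stress genes, a list chosen with earlier results known, were lower as well. They summed to between 13499 and 18629 CPM on the high-fat diet and between 27893 and 34939 CPM on chow. Of the 28, 0 were positive and 8 were called lower, against 49.5% positive and 0.167% called lower over all genes tested. The part of this list in the Ppp1r15a and Hspa5 levels was not tested.

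The other feedback genes were at low levels. Chac1, which degrades glutathione, was at 6.70, 14.6 and 6.96 CPM on the high-fat diet and 4.77, 1.40 and 4.94 CPM on chow, without overlap but with a wide error (log2 fold change 1.34 ± 1.00 SE, edgeR adjusted p = 0.894). Ddit4, an inhibitor of mTORC1 known as REDD1, was at 17.8, 10.7 and 17.7 CPM and 23.1, 22.4 and 15.5 CPM (log2 fold change -0.40 ± 0.52 SE, edgeR adjusted p = 0.984). Sesn2, a leucine sensor, was at 21.3, 50.1 and 22.7 CPM and 26.5, 31.8 and 38.4 CPM (log2 fold change -0.04 ± 0.42 SE, edgeR adjusted p = 1.00). Both overlapped between the diets. Trib3, a pseudokinase that inhibits ATF4 signalling, had 0 counts in every high-fat diet library and 9, 4 and 24 counts in the chow libraries, under the filter on low counts. A count of 3 corresponds to between 0.165 and 0.201 CPM here, so that 0 counts allow up to that level, counting error only.

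**Figure D4:**
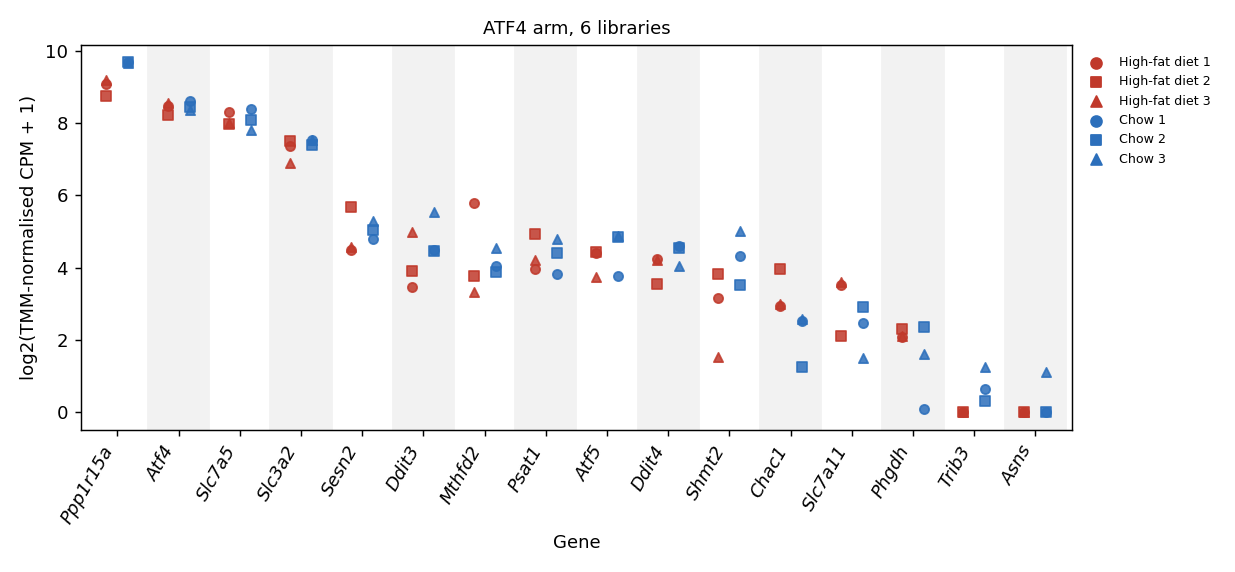
Level of each ATF4 arm gene in the 6 libraries as log2(TMM-normalised CPM + 1), drawn as for the chaperone arm and ordered by mean CPM without length correction. Ppp1r15a has all red points below the blue ones, Atf4, Slc7a5 and Slc3a2 overlap at the high levels, and the remaining genes are at low levels with points of both colours mixed, apart from Chac1 and Trib3.

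The amino acid and folate-pathway genes, targets that ATF4 induces when amino acids are short, were at low levels, from means of 0.191 CPM (Asns) to 21.2 CPM (Mthfd2). Asns, asparagine synthetase, had 0 counts in 5 libraries and 20 counts in chow library 3. Shmt2, a mitochondrial enzyme of serine and glycine, was at 8.0, 13.05 and 1.89 CPM on the high-fat diet and 19.1, 10.6 and 31.4 CPM on chow (log2 fold change -1.41 ± 0.75 SE, edgeR adjusted p = 0.735). Its estimate was the lowest of the arm, yet the libraries overlapped. Mthfd2, the next enzyme of that pathway, was at 54.0, 12.7 and 8.95 CPM and 15.5, 13.7 and 22.4 CPM, where high-fat diet library 1 alone was high (log2 fold change 0.55 ± 0.64 SE, edgeR adjusted p = 0.968). Without this library its log2 fold change was -0.66. Psat1, an enzyme of serine synthesis, was at 14.6, 29.7 and 17.4 CPM on the high-fat diet and 13.1, 20.2 and 26.9 CPM on chow (log2 fold change 0.03 ± 0.51 SE, edgeR adjusted p = 1.00). Phgdh, the first enzyme of serine synthesis, was at 3.25, 3.90 and 3.34 CPM and 0.0628, 4.14 and 2.07 CPM, with the lowest and the highest value both on chow (log2 fold change 0.74 ± 1.65 SE, edgeR adjusted p = 0.999). No difference in Psat1 or Phgdh was detectable at this depth and spread.

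The transporters of the arm overlapped between the diets. Slc7a5 encodes LAT1, an exchanger for large neutral amino acids that works as a pair with the Slc3a2 protein. Slc7a5 was at 313, 252 and 254 CPM on the high-fat diet and 333, 268 and 221 CPM on chow (log2 fold change -0.0046 ± 0.19 SE, edgeR adjusted p = 1.00). Its partner Slc3a2 was at 162, 182 and 118 CPM and 183, 167 and 182 CPM (log2 fold change -0.20 ± 0.21 SE, edgeR adjusted p = 0.958). Slc7a11, which pairs with Slc3a2 to import cystine and carries 2 CARE matches, was at 10.5, 3.33 and 11.2 CPM and 4.52, 6.47 and 1.84 CPM (log2 fold change 0.96 ± 1.03 SE, edgeR adjusted p = 0.961). High-fat diet library 2 lay with the chow libraries there, so that no order by diet was seen.

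Set side by side, the arms differed by 0.55 in median log2 fold change, with the chaperone arm at 0.50 and the ATF4 arm at -0.04. This difference stayed between 0.50 and 0.72 in the fits with 1 library left out. It was 0.63 without the 2 deviating libraries and 0.63 over genes whose mean reached 50 CPM, which left 11 chaperone arm genes and 4 ATF4 arm genes. Over those genes the mean deviation of log2 CPM from each gene's own mean was 0.50, 0.34 and -0.23 for the chaperone arm in the high-fat diet libraries, in their order, and -0.14, -0.30 and -0.16 in the chow libraries. The ATF4 arm gave -0.01, -0.19 and -0.15 with the high-fat diet and 0.24, 0.09 and 0.03 with chow. In the chaperone arm high-fat diet library 3 thus lay among the chow libraries, and in the ATF4 arm all 3 high-fat diet libraries lay below them, closely so for high-fat diet library 1. Of those 4 genes Ppp1r15a alone had libraries that did not overlap, while Atf4, Slc7a5 and Slc3a2 each overlapped between the diets. The order of the 4-gene mean was not seen over all 14 tested genes of the ATF4 arm, which gave 0.09, 0.07 and -0.17 on the high-fat diet against -0.23, 0.04 and 0.20 on chow, a difference of -0.0076. The difference of the diets in the chaperone arm, 0.41, was close to the SD of the high-fat diet libraries, 0.39, and larger than that of the chow libraries, 0.09. Over all tested genes of the arms, the chaperone arm's difference of 0.37 was smaller than the SD of the high-fat diet libraries, 0.50, and close to that of the chow libraries, 0.39. The chaperone arm minus the ATF4 arm over all tested genes was 0.54, 0.21 and -0.18 in the high-fat diet libraries and 0.26, -0.67 and -0.16 in the chow libraries. These overlapped between the diets, and the mean difference of 0.38 was close to the high-fat diet SD of 0.36 and below the chow SD of 0.46. Over genes whose mean reached 50 CPM, chaperone minus ATF4 was 0.51, 0.54 and -0.08 in the high-fat diet libraries. It was -0.38, -0.39 and -0.19 in the chow libraries, without overlap, with a mean difference of 0.65 (SD 0.35 and 0.11). That limit was set after the values were seen and left 4 ATF4 arm genes. The arms were chosen with results known, and no p is given for them.

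**Figure D5:**
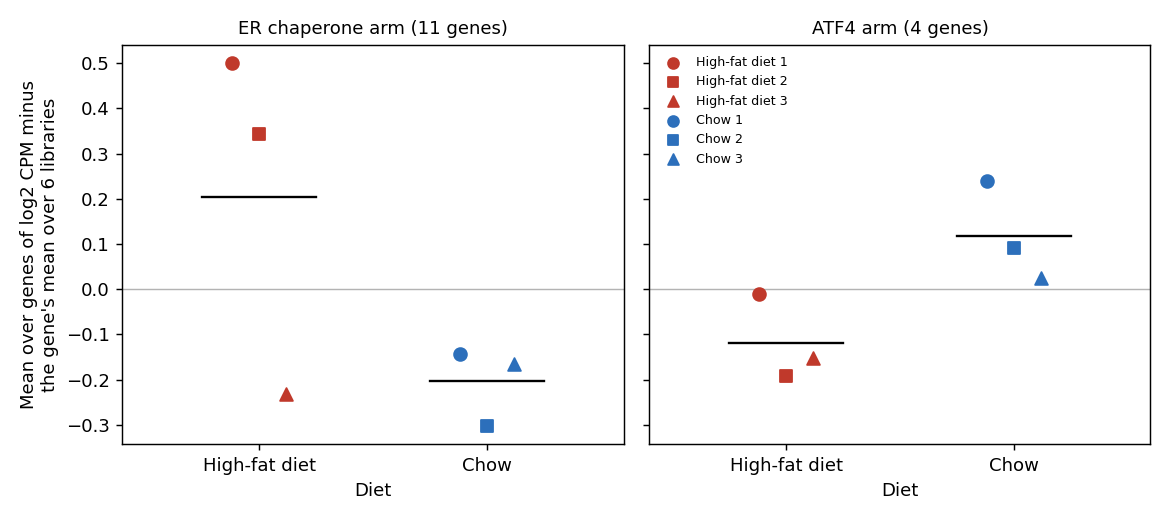
Mean over genes of log2 CPM minus each gene's mean over the 6 libraries, for the 11 ER chaperone arm genes (left) and the 4 ATF4 arm genes (right) whose mean reached 50 CPM; points are libraries and lines the mean of 3. On the left high-fat diet libraries 1 and 2 lie at 0.50 and 0.34 and library 3 at -0.23 among the chow libraries, and on the right all high-fat diet libraries lie below the chow libraries. Of the 4 genes on the right, Ppp1r15a alone did not overlap between the diets.

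Other genes of these pathways were taken from 7 further lists, written with earlier results known, and 0 of their genes passed over all genes in edgeR. The scale for each list is all genes tested, of which 49.5% were positive. At an unadjusted p under 0.05, 3.7% of all genes tested were higher and 3.95% lower. A count of 1 or 2 in a list rests on few genes, and no list was tested against these shares. Of 30 tested ER folding and glycoprotein quality control genes outside the 14, 21 were positive with a median log2 fold change of 0.32, and 5 were higher and 0 lower at an unadjusted p under 0.05. The 2 with the smallest p were Dnajc10, a disulphide reductase also known as ERdj5, and Prkcsh, the beta subunit of glucosidase II. Dnajc10 was at 65.9, 53.3 and 75.6 CPM on the high-fat diet and 40.5, 24.2 and 24.9 CPM on chow (log2 fold change 1.12 ± 0.33 SE, edgeR adjusted p = 0.291), and its libraries did not overlap. Prkcsh was at 25.1, 13.3 and 20.2 CPM and 2.32, 10.1 and 2.64 CPM (log2 fold change 1.95 ± 0.76 SE, edgeR adjusted p = 0.504).

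Genes of ER translocation and signal peptide cleavage had a median of 0.27 (13 of 19 positive, 0 at an unadjusted p under 0.05 in either direction), with Srprb at 0.80 ± 0.63 (SE; adjusted p = 0.907) and Ssr1 at 0.27 ± 0.21 (SE; adjusted p = 0.910). The other degradation genes had a median of 0.25 (16 of 22 positive, 0 at that p). Among them the log2 fold change was -1.25 ± 0.60 (SE; adjusted p = 0.671) for Aup1 and 0.41 ± 0.20 (SE; adjusted p = 0.671) for Ube2j1, a ubiquitin-conjugating enzyme of the ER membrane. Of 15 further sensor and processing genes, 12 were positive with a median of 0.15 and 1 was higher at that p. This was Creb3l2, an ER membrane-bound transcription factor related to ATF6, at 97.3, 118 and 86.0 CPM on the high-fat diet and 50.2, 49.7 and 40.1 CPM on chow. The libraries did not overlap (log2 fold change 1.11 ± 0.25 SE, edgeR adjusted p = 0.139), and Bbc3, the BH3-only gene PUMA, was at 2.61 ± 1.31 (SE; adjusted p = 0.698).

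Genes around eIF2 had a median below 0, and the other ATF4 and CHOP targets had a median close to 0. Of 14 genes for eIF2 kinases, eIF2 and eIF2B, 4 were positive with a median of -0.12, and 2 were lower at an unadjusted p under 0.05. These were the kinase genes Eif2ak2 (PKR), which interferon induces, and Eif2ak4 (GCN2), which senses uncharged tRNA. Eif2ak2 was at 0.0650, 5.44 and 3.72 CPM on the high-fat diet and 13.8, 21.2 and 27.4 CPM on chow (log2 fold change -2.75 ± 1.02 SE, edgeR adjusted p = 0.462). Eif2ak4 was at 30.9, 30.2 and 19.3 CPM and 40.0, 54.1 and 60.5 CPM, also without overlap (log2 fold change -0.94 ± 0.35 SE, edgeR adjusted p = 0.470). Of 26 tested ATF4 and CHOP targets outside the 16, 14 were positive with a median of 0.06, and 3 were higher and 3 lower at that p. Cebpb, a partner of ATF4, was at 427, 434 and 423 CPM and 790.4, 767 and 513 CPM, with every high-fat diet library below the chow libraries (log2 fold change -0.69 ± 0.18 SE, edgeR adjusted p = 0.199). The 20 cytosolic aminoacyl-tRNA synthetase genes had a median of 0.01, with 10 positive and 2 higher at that p, Eprs and Cars. Their log2 fold changes were 0.54 ± 0.20 (SE; adjusted p = 0.472) and 0.93 ± 0.35 (SE; adjusted p = 0.476), and Cars is counted in both lists.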

How the data were processed

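The deposited values are read counts per Entrez gene ID, 1 table per library, made by the authors with Bowtie2 and featureCounts per the submitters' processing notes, which name the builds GRCm38 and mm10. Their versions, the strand setting and the annotation are not given in the sources used here. Symbols came from the RefSeq gene table of GRCm38.p6 (25275 of 27179 IDs, and 18 more from GENCODE M21), exon lengths from GENCODE M21 and promoters from RefSeq. All pairs of libraries differed by more than sampling noise.

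From these counts, edgeR 4.0.16 in R 4.3.3 filtered genes (filterByExpr, minimum count 10), scaled by TMM and compared the diets (glmQLFit, glmQLFTest, two-sided, diet as the only factor). SE was taken as the size of the log2 fold change over the root of its F statistic. Deviations used log2 CPM (prior count 2). On simulated counts the fit made few false calls and missed most of the genes that had been changed. Total counts of 14930394 to 18217818 put a floor of 3 counts at 0.165 to 0.201 CPM. No molecular identifiers are named in the labels, so floors cover counting error only.

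The members, arms, lists and alternatives were chosen with earlier results of these data known. Given in full were, of each role group, up to 4 members with the smallest p, and always Hspa5, Atf4, Ddit3, Xbp1, Ern1 and Atf6. Of each further list the 2 genes with the smallest p were named. Other members' values, the ratios with Hspa5 and the limit of 50 CPM were chosen after values were seen. Alternatives were other scalings and filters, DESeq2 1.42.0, limma-voom (limma 3.58.1), robust dispersions, the replicate number as a block, and fits without libraries.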

Additional observations from a re-analysis of the deposited data

How the results depend on the processing

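The difference between the arms in median log2 fold change was 0.55 in the fit used above. It ran from 0.50 to 0.72 under all 16 alternatives listed under the processing. It was 0.63 over members of at least 50 CPM, a limit added after seeing the data. All of these moved by less than 1 SD between libraries (0.41), a wide mark next to a difference of 0.55. The number of genes called over all genes was 163 with no filter, 280 with DESeq2, 99 with limma-voom, 1 without high-fat diet library 1 and chow library 3, and 9 to 44 when 1 library was left out. The number of listed genes called was 1 with no filter, 1 with DESeq2 and 1 with limma-voom, in each case Ppp1r15a (log2 fold changes -0.65, -0.67 and -0.67), and 0 in every fit with 1 library left out. The cause was not tested. The ATF4 arm's median ran from -0.26 to 0.0035 with 1 library left out, and that of the chaperone arm from 0.41 to 0.70.

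With the replicate number as a block (replicate block), 45 genes and 0 of the listed genes passed. Deviations from the diet means correlated at 0.02, 0.03 and -0.03 for libraries of the same number. For libraries of different numbers the correlations ran from -0.06 to 0.03. High-fat diet libraries 1 and 2 correlated best with the chow library of the same number, and library 3 with chow library 2. Values this near 0 cannot show whether the numbers pair the libraries.

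Of 26 genes given in full, 17 kept the sign of their log2 fold change in every fit. Slc7a5, near 0, was at 0.0103 with upper-quartile scaling, 0.00238 with total counts, 0.0121 with no filter, 0.00965 with limma-voom and 0.00799 with the block. Without high-fat diet library 1 and chow library 3 Ddit3 was at 0.0838, Mthfd2 at -0.42 and Sesn2 at 0.33. With 1 library left out, the ranges that crossed 0 were -0.14 to 0.16 for Slc7a5, -0.66 to 0.96 for Mthfd2, -0.0284 to 0.52 for Sel1l, -0.55 to 0.19 for Sesn2, -0.12 to 0.0416 for Atf4, -0.33 to 0.31 for Psat1, -0.22 to 0.14 for Atf6 and -0.21 to 0.28 for Syvn1. The median SE was 0.52 in the ATF4 arm and 0.24 in the chaperone arm, and the parts of depth and of spread between libraries in this were not tested.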

Other observations

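Genes outside the list that carry the ER stress element were set beside the listed ones. Of the 37 genes with an exact ERSE match in a RefSeq promoter window, 17 were tested, and 11 had a positive log2 fold change, with a median of 0.46 and 0 called in edgeR. The 9 of these that are not on the list had 4 positive values and a median of -0.16. The 6 unlisted tested genes with an ERSE-II match had 4 positive values and a median of 0.23. The 108 tested genes with a UPRE match, none of them listed, had 59 positive values and a median of 0.05. The 272 unlisted tested genes with a CARE match had 133 positive values and a median of -0.05. These are descriptions of lists defined by letters in a window, with no test.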
